A study of Xenopus tropicalis x Xenopus laevis and Xenopus laevis and Xenopus tropicalis with 8 samples.

Results

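The cytosolic ribosomal proteins, the proteins that build the large and small subunits of the ribosome, were followed in early embryos of 2 frog species and their reciprocal hybrids. Members were all features of the deposited table whose gene symbol was rpl or rps followed by a digit, or rplp0, rplp1, rplp2 or rpsa, without the kinases and binding protein whose symbols begin with rps6k or are rps19bp1. Transcripts were summed by symbol within each species. This gave 150 members of 25863 features, of which 77 were X. laevis and 73 were X. tropicalis, built from 288 of 34647 transcripts. The members had 78 distinct symbols, and 72 of these were present in both species. rpl23, rpl32, rpl37a, rpl39 and rpl7l1 were listed for X. laevis alone, and rpl36al for X. tropicalis alone.

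The study used hybrids between a large and a small frog to look for genes that act on the size of cells and organisms. Whole embryos at stage 9, collected 9 h post-fertilization, were sequenced after poly(A) capture. The 4 groups had 2 libraries each, numbered 1 and 3 in every group. The le x ts hybrids grew from eggs of X. laevis fertilized by X. tropicalis sperm and are compared with X. laevis embryos. The te x ls hybrids grew from eggs of X. tropicalis fertilized by X. laevis sperm, a cross whose embryos die at the onset of zygotic transcription, and are compared with X. tropicalis embryos. The labels give neither strain nor number of embryos per library, and nothing in them says that the libraries of a group came from separate females. The p-values therefore measure the spread between these libraries only.

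Each ribosome carries a single copy of most of these proteins, and vertebrate cells make them from mRNAs that share a 5' terminal oligopyrimidine (TOP) tract, through which their translation follows growth signals. A frog egg is stocked with ribosomes during oogenesis. In X. laevis, ribosomal protein mRNAs lose most of their poly(A) tail and leave polysomes when the oocyte matures, and new ribosomes are made only later in development. A library made by poly(A) capture measures the tailed part of these mRNAs, and the tailed part cannot be told apart from the amount of mRNA.

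The values are TPM, a share of all transcripts of a library that is corrected for transcript length. Only reads with a unique, exact target were counted, so levels also depend on how much of a gene's sequence is unique. Ranks between genes carry that limit. Those of a group are given for library 1 and then for library 3. The deposited values do not state how many reads each library had. Compared with the X. laevis library numbered 1, the le x ts libraries numbered 1 and 3 had an estimated 0.973 and 0.439 times as many reads. Compared with the X. tropicalis library numbered 1, the te x ls libraries had 1.52 and 1.12 times as many, and the X. tropicalis library numbered 3 had 0.323 times as many. All 9 egg-supplied marker genes were at 1 TPM or more in every library. Markers of the onset of zygotic transcription were summed over the copies of the egg's species alone. These sums were 294 and 150 TPM in le x ts embryos, against 540 and 317 TPM in X. laevis embryos. They were 203 and 506 TPM in te x ls embryos, against 504 and 1019 TPM in X. tropicalis embryos. The hybrid sums leave out mRNA from the sperm's copies, such as that of ventx2. X. tropicalis ventx2 had 57.6 and 24.8 TPM in le x ts embryos. X. laevis ventx2 had 62.1 and 93.2 TPM in te x ls embryos. Of 10 markers of later tissues, the highest was the keratin gene krt5, at 162 to 360 TPM in embryos from X. laevis eggs.

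Ribosomal protein mRNAs of the egg's species were abundant in all 8 libraries. The 77 X. laevis members had a median of 119 TPM in X. laevis embryos and ranged between 3.03 and 758 TPM (means of n = 2), against a median of 39.9 TPM over the 10917 X. laevis features at 1 TPM or more. The 73 X. tropicalis members had a median of 88.7 TPM in X. tropicalis embryos and ranged between 0.27 and 929 TPM, against a median of 42.6 TPM over the 10725 features at 1 TPM or more. The median member stood at the 81.5th percentile of X. laevis features and at the 75.1st percentile of X. tropicalis features. Although most of these proteins are assembled in equal numbers, the 10 most abundant members held 36.2% of the ribosomal protein TPM in X. laevis embryos and 45.5% in X. tropicalis embryos. The part of unequal read loss between genes in these shares was not tested.

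The share of the egg species' TPM in ribosomal protein mRNAs was close to 1% in every group. It was 1.13% and 1.30% in the le x ts libraries, against 1.33% and 1.15% in the X. laevis libraries. In the te x ls libraries it was 1.12% and 1.26%, against 1.07% and 1.12% in the X. tropicalis libraries. The groups of each pair overlapped, with means of 1.22% ± 0.122 in le x ts and 1.24% ± 0.127 in X. laevis embryos, and of 1.19% ± 0.0963 in te x ls and 1.10% ± 0.0351 in X. tropicalis embryos (SD, n = 2 each). With 2 libraries against 2, an exact two-sided permutation test cannot give a p below 0.333. The ratio of the listed subunit members differed by egg. Members of the large subunit held 1.17 to 1.30 times the TPM of the small subunit in the 4 libraries from X. laevis eggs, and 0.833 to 0.855 times in the 4 libraries from X. tropicalis eggs, with no overlap. The symbols listed for 1 species alone are all of the large subunit, and most are X. laevis symbols. Among them rpl39 averaged 657 TPM in X. laevis embryos. The ratio was not taken over the shared symbols alone, and the part of the listed symbols in this difference was not tested.

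**Figure D1:**
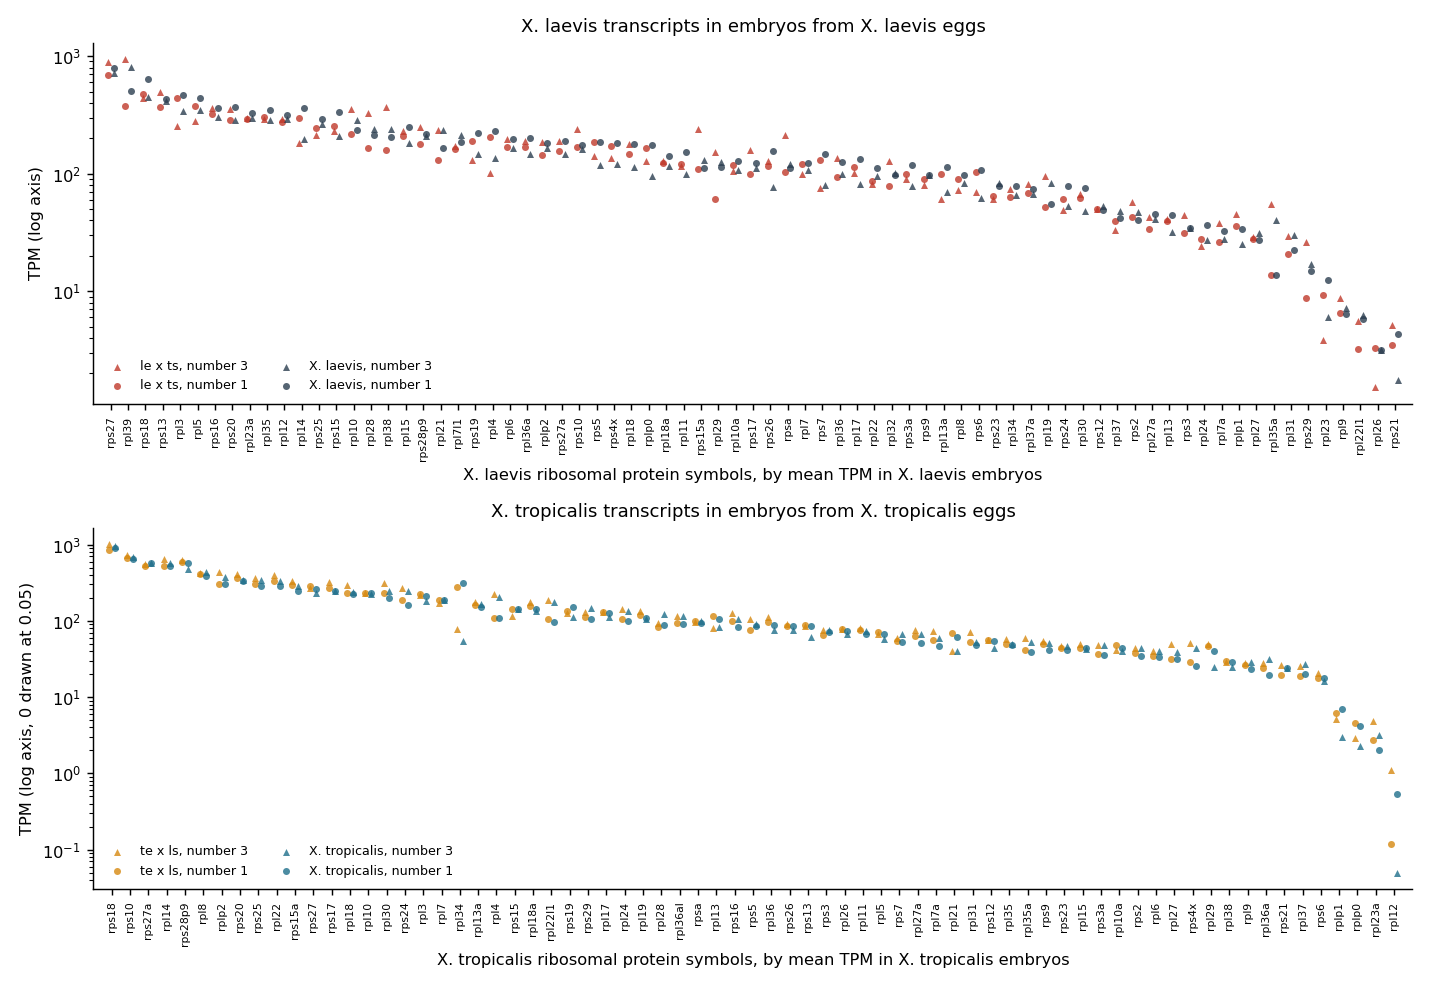
TPM (log axis) of ribosomal protein symbols in embryos from X. laevis eggs (top, X. laevis symbols) and X. tropicalis eggs (bottom, X. tropicalis symbols), ordered by the mean in the egg's species. Each point is 1 library, triangles are libraries numbered 3 and circles those numbered 1. Over all members the medians are 119 TPM in X. laevis and 88.7 TPM in X. tropicalis embryos, and the steps at the right end hold the few symbols with low values.

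In X. laevis embryos the highest member was rps27, a zinc-binding protein of the small subunit, with 796 and 721 TPM. It was followed by rpl39, a very small protein that lines the exit tunnel for the new peptide, with 506 and 808 TPM, and rps18, in the head of the small subunit, with 643 and 446 TPM. rps13 had 429 and 415 TPM. The 2 libraries of a group thus lay close together for rps27 and rps13 and farther apart for rpl39 and rps18. rpl3, which reaches towards the peptidyl transferase centre, had 466 and 339 TPM, and rpl5, which carries 5S rRNA into the ribosome, had 440 and 347 TPM. rps16 and rps20, both of the small subunit, averaged 333 ± 38.0 and 329 ± 59.2 TPM (SD, n = 2). At the other end rps21 had 4.31 and 1.74 TPM, rpl26 had 3.17 and 3.16 TPM, and rpl22l1, a paralogue of rpl22, had 5.74 and 6.30 TPM. The fourth lowest was rpl9, at 6.82 ± 0.564 TPM (SD, n = 2).

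In X. tropicalis embryos the highest member was rps18, with 890 and 969 TPM. rps10, in the head of the small subunit, had 650 and 679 TPM, and rps27a, which is made as a fusion with ubiquitin, had 574 and 572 TPM. rpl14 had 517 and 570 TPM. Both libraries gave nearly the same value for these genes. rps28p9, a symbol of the RPS28 family, averaged 524 ± 66.7 TPM, rpl8 411 ± 30.7 TPM and the stalk protein rplp2 337 ± 52.5 TPM (SD, n = 2). The lowest was rpl12, at the base of the stalk, with 0.54 and 0 TPM, followed by rpl23a with 2.0 and 3.2 TPM, the stalk base protein rplp0 with 4.13 and 2.30 TPM and its partner rplp1 with 6.98 and 2.97 TPM. Of the 8 most abundant members in each species, rps18 alone was in both sets.

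The levels of single ribosomal protein mRNAs differed widely between the species. Of the 72 symbols present in both, 41 were called between X. laevis and X. tropicalis embryos, where called means an adjusted p under 0.05 (limma on log2(TPM + 1), Benjamini-Hochberg over all symbols tested) and an absolute log2 difference above 1. This is 56.9% of the members, beside 3923 of 9685 symbols tested, or 40.5%. The called members divided into 23 higher (31.9%) and 18 lower (25%) in X. laevis embryos, beside 20.6% and 19.9% of all symbols tested, and the median log2 difference over all 72 was 0.11, beside 0.03 over all symbols.

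The 3 largest differences were in genes that were abundant in X. laevis and near 0 in X. tropicalis. rpl12 had 316 and 290 TPM in X. laevis embryos, against 0.54 and 0 TPM in X. tropicalis embryos. rpl23a, at the tunnel exit, had 331 and 299 TPM in X. laevis embryos, against 2.0 and 3.2 TPM in X. tropicalis embryos. rplp0 had 175 and 94.6 TPM in X. laevis embryos, against 4.13 and 2.30 TPM in X. tropicalis embryos. None of these ranges overlapped, and the log2 differences were 7.93 ± 0.36 for rpl12, 6.48 ± 0.29 for rpl23a and 4.98 ± 0.39 for rplp0 (SE, limma, adjusted p = 1.5e-05, 1.5e-05 and 7.8e-05).

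The stalk proteins did not move as a group. rplp1 was also higher in X. laevis embryos, by 2.42 ± 0.38 on the log2 scale (limma, adjusted p = 0.0016), while rplp2 had 183 and 164 TPM in X. laevis embryos, against 300 and 374 TPM in X. tropicalis embryos, a log2 difference of -0.95 ± 0.23 (limma, adjusted p = 0.011). Next came rpl38, known in mouse for its part in the translation of Hox mRNAs, with 206 and 239 TPM in X. laevis embryos, against 28.9 and 24.9 TPM in X. tropicalis embryos, and rpl36a, with 199 and 147 TPM against 19.3 and 31.5 TPM. rps6, the substrate of S6 kinase, was higher as well, at 84.8 ± 31.8 TPM in X. laevis and 17.1 ± 1.25 TPM in X. tropicalis embryos (SD, n = 2 each, limma, adjusted p = 0.0011).

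The largest differences in the other direction were in rpl22l1 and rpl26. rpl22l1 had 5.74 and 6.30 TPM in X. laevis embryos, against 95.4 and 175 TPM in X. tropicalis embryos, and rpl26 had 3.17 and 3.16 TPM, against 74.5 and 68.0 TPM. The log2 differences were -4.22 ± 0.41 and -4.11 ± 0.30 (SE, limma, adjusted p = 0.00019 and 6.2e-05). Both members of the rpl22 pair were lower in X. laevis embryos, since rpl22 had 111 and 95.8 TPM there, against 289 and 332 TPM in X. tropicalis embryos. rps29, rps21 and rpl8, which lies next to the peptidyl transferase centre, followed with log2 differences of -2.89, -2.72 and -2.18. rpsa, also known as the laminin receptor, had 111 and 122 TPM in X. laevis embryos, against 93.4 and 101 TPM in X. tropicalis embryos, and did not pass the test (log2 difference 0.26 ± 0.32, limma adjusted p = 0.53).

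A read was counted only if it matched 1 target exactly, and the database held 196 X. laevis and 92 X. tropicalis transcripts of these genes. Near-identical copies, which are common among ribosomal protein genes and between the homeologous gene pairs of the allotetraploid X. laevis, lose reads under this setting. A difference between the species and a difference in how the database holds their transcripts cannot be told apart. Differences between genes within a species carry the same limit.

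**Figure D2:**
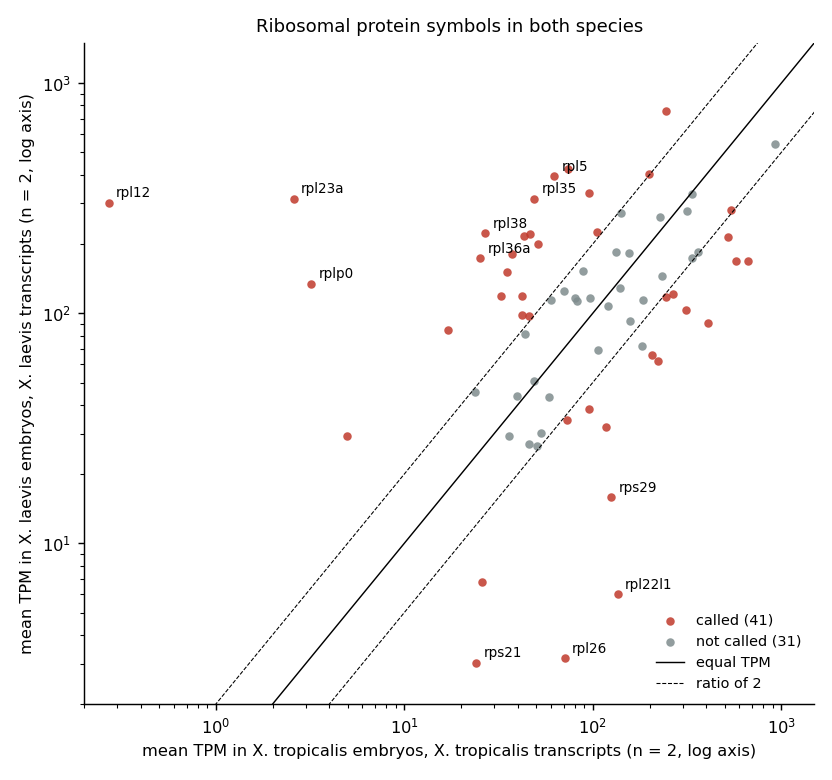
Mean TPM in X. laevis embryos (vertical, log axis) and X. tropicalis embryos (horizontal, log axis) of the 72 ribosomal protein symbols present in both species, n = 2 libraries each. Red points are the 41 called symbols, grey points the 31 others, the solid line marks equal TPM and the dashed lines a ratio of 2. rpl12, rpl23a and rplp0 lie far to the left, and rpl22l1, rpl26 and rps21 at the bottom.

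In X. laevis eggs fertilized with X. tropicalis sperm, no X. laevis ribosomal protein mRNA passed the threshold. All 77 X. laevis members were tested and 0 were called, as were 0 of the 11061 X. laevis features (0%) in limma, and 0 members had an unadjusted p under 0.05, beside 0.181%. The log2 differences between le x ts and X. laevis embryos ranged between -0.47 and 0.46 with a median of -0.04, beside a median of 0.01 over all X. laevis features, and 34 members were positive and 43 negative, where 51.6% of all X. laevis features were positive. The count of positive members was 39 and 24 without le x ts library 1 or 3, and 48 and 21 without X. laevis library 1 or 3.

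None of the largest differences passed the test, whether or not the libraries overlapped. rplp1 had 35.9 and 45.1 TPM in le x ts embryos, against 33.6 and 25.2 TPM in X. laevis embryos, and was the only member whose le x ts libraries were both above both X. laevis libraries, beside 10.5% of all X. laevis features. Its log2 difference was 0.45 ± 0.31 (SE, limma, adjusted p = 1.0). rps15a had 110 and 242 TPM in le x ts embryos, against 111 and 132 TPM in X. laevis embryos, and rpsa had 103 and 215 TPM, against 111 and 122 TPM, so that 1 library made each mean higher. 8 members had both le x ts libraries below both X. laevis libraries, beside 7.95% of all features. Among them rps23, a protein of the decoding centre, had 64.9 and 61.4 TPM in le x ts embryos, against 78.6 and 83.2 TPM in X. laevis embryos, and rpl22 had 86.2 and 82.2 TPM, against 111 and 95.8 TPM. The others in this set were rpl22l1, rpl23a, rpl37, rpl7l1, rps25 and rps9. These counts depend on single libraries. Without le x ts library 1 or 3, 28 and 2 members were higher, beside 31.9% and 40.4% of all unfiltered X. laevis features. In these settings 24 and 33 were lower, beside 42.5% and 23.1%. Without X. laevis library 1 or 3, 23 and 6 were higher, beside 27.1% and 25.1%, and 11 and 45 lower, beside 22.8% and 23.9%. Several differences changed sign without le x ts library 3, the library with the fewest reads of its pair. Without it, rps15a, rpsa and rpl35a had log2 differences of -0.14, -0.17 and -0.75. For rpl35a the difference was also negative, at -0.54, without X. laevis library 1. Between libraries of the same number, rpl35a was higher in le x ts embryos in both pairs, by 0.42 for number 3 and 0.01 for number 1.

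The direction of the X. laevis members turned with the library number, a comparison chosen after the values were seen. Between the libraries numbered 3, 50 of 77 members were higher in le x ts than in X. laevis embryos, with a median log2 difference of 0.18. Between the libraries numbered 1, only 7 of 77 were higher and 70 were lower, with a median of -0.22. Over all X. laevis features 47.7% and 59.9% were higher in these pairs of libraries, with medians of -0.02 and 0.04. 4 members (5.19%) were higher in both pairs and 24 (31.2%) lower, beside 28.5% and 20.8% of all X. laevis features.

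The X. tropicalis ribosomal protein mRNAs of te x ls embryos differed little from those of X. tropicalis embryos, with mostly 1 sign. All X. tropicalis members but rpl12, 72 of 73, passed the filter of 1 TPM in 2 libraries, and 0 were called, as were 0 of 10775 X. tropicalis features (0%) in limma. No member had an unadjusted p under 0.05, beside 1.33% of these features. In all, 59 of the 72, or 81.9%, had a positive log2 difference between te x ls and X. tropicalis embryos, beside 44.8% of all X. tropicalis features, and their median was 0.13, beside -0.01. In 22 members both te x ls libraries were above both X. tropicalis libraries, beside 6.96% of all features, and in 2, rps15 and rps27a, both were below, beside 10.2%. Without te x ls library 1 or 3 the first count was 49 and 29, beside 25.2% and 24.5% of all unfiltered X. tropicalis features, and without X. tropicalis library 1 or 3 it was 31 and 51, beside 30.5% and 26.3%. The second count was 5 and 10 without te x ls library 1 or 3, beside 35.3% and 26.7% of those features. Without X. tropicalis library 1 or 3 it was 14 and 5, beside 30.4% and 39.2%.

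Of the large subunit 37 of 42 members were positive, with a median of 0.13, and of the small subunit 22 of 30, with a median of 0.11. rpl29, of the large subunit, had 47.3 and 50.4 TPM in te x ls embryos, against 40.6 and 24.6 TPM in X. tropicalis embryos, the largest log2 difference at 0.61 ± 0.27 (SE, limma, adjusted p = 1.0). rpl36 had 98.0 and 114 TPM in te x ls embryos, against 88.4 and 76.2 TPM in X. tropicalis embryos. Both genes had both te x ls libraries above both X. tropicalis libraries, although the gap was small beside the difference between replicates. rpl28 went the other way, with 83.9 and 94.7 TPM in te x ls embryos, against 88.4 and 123 TPM in X. tropicalis embryos, and its libraries overlapped. rps27a had 528 and 553 TPM in te x ls embryos, against 574 and 572 TPM in X. tropicalis embryos.

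Between the libraries numbered 3, 55 of 72 members were higher in te x ls than in X. tropicalis embryos, with a median log2 difference of 0.18, and between those numbered 1, 58 of 72 were higher, with a median of 0.08. Over all features these shares were 46.3% and 44.5%. 45 members, or 62.5%, were higher in both pairs, beside 25.1% of all features, and 4 (5.56%) were lower in both, beside 34.2%. The count of positive members fell to 43 without te x ls library 3 and to 44 without X. tropicalis library 1, and was 61 without either of the other 2 libraries. The te x ls libraries had more estimated reads than those of X. tropicalis. Their sums of zygotic markers, taken over X. tropicalis copies alone, were lower than in the X. tropicalis library of the same number. The part of either in these differences was not tested.

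**Figure D3:**
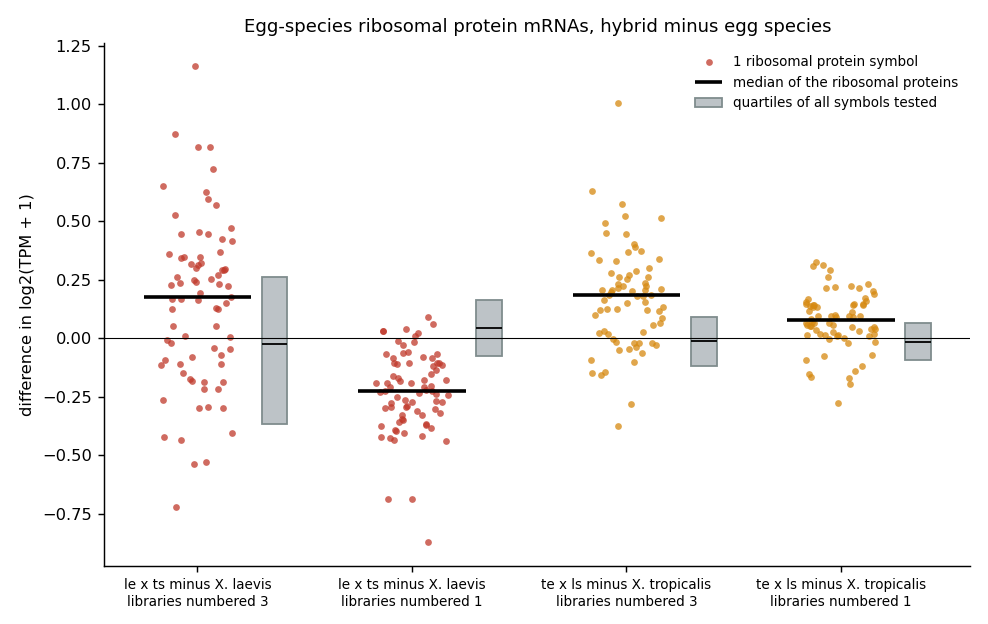
Difference in log2(TPM + 1) between hybrid and egg species for each ribosomal protein symbol of the egg's species, shown between libraries of the same number. Points are symbols (77 for le x ts minus X. laevis, 72 for te x ls minus X. tropicalis), thick lines their medians, and grey boxes the quartiles of all symbols tested with their median. The medians are 0.18 and -0.22 in the pairs from X. laevis eggs, and 0.18 and 0.08 in those from X. tropicalis eggs.

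The hybrid differences of the crosses were compared in an interaction fit over the 72 shared symbols. 0 were called, as were 0 of 9685 symbols (0%) in limma, and 0 members had an unadjusted p under 0.05, beside 30 of all symbols. The difference, te x ls effect minus le x ts effect, was positive for 53 of the 72 and had a median of 0.20, beside 47.6% and -0.02 over all symbols. It was largest for rpl29, at 0.90 ± 0.60, and lowest for rps21, at -0.54 ± 0.53 (SE, limma, adjusted p = 1.0 for both). For rpl22 the effects were 0.23 in te x ls and -0.29 in le x ts embryos, a difference of 0.53 ± 0.24 (SE). Without the X. laevis library numbered 1 the count of positive members was 41 of 72, and without that numbered 3 it was 58.

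mRNAs from the sperm's genome are seen as features of the other species. In te x ls embryos, X. laevis ribosomal protein mRNAs were above 0 for 63 and 64 of the 77 X. laevis members, against 13 and 17 in X. tropicalis embryos. Over all 13011 X. laevis features, 52.6% and 46.6% were above 0 in te x ls and 24.5% and 19.6% in X. tropicalis embryos. For the 8384 at a mean of 10 TPM or more in X. laevis embryos, these shares were 66.4% and 57.3%, against 36.2% and 29.2%. Of these 8384, 28.8% had both te x ls libraries above both X. tropicalis libraries, and 4.62% had both below. In 48 of 77 members, or 62.3%, both te x ls libraries were above both X. tropicalis libraries, beside 24.5% of all X. laevis features, and 2 members, rpl5 and rps24, were the other way round, beside 3.09%. The first count lay between 50 and 57 with any 1 library left out, beside 28.0% to 38.1% of all X. laevis features, and the second was 8 without X. tropicalis library 1, beside 12.9% of all features. In 37 members both te x ls libraries were above 0 and both X. tropicalis libraries at 0, beside 2272 of the 13011 X. laevis features. The other way round there were 0 members, beside 87 features. A value of 0 also depends on the reads of a library, which were fewest in X. tropicalis library 3.

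The levels were low. The 75 members under 1 TPM in both X. tropicalis libraries summed to 35.7 and 41.9 TPM in te x ls embryos, against 1.91 and 5.04 TPM in X. tropicalis embryos. Over all X. laevis features under 1 TPM there, the sums were 2597 and 3254 TPM, against 316 and 582 TPM. The median X. laevis member stood in te x ls embryos at 0.335% of its mean in X. laevis embryos, against 0% in X. tropicalis embryos. Over all X. laevis features that median was 0.0432% in te x ls embryos, and over the 8384 at 10 TPM or more in X. laevis embryos it was 0.0572%. 7 members were at 1 TPM or more in both te x ls libraries and under it in both X. tropicalis libraries, beside 2.74% of all X. laevis features, and 0 were the other way round. Without te x ls library 1, and likewise without library 3, the count was 13, for which no share over all features is given. rps27 was the highest of them with 2.63 and 2.49 TPM in te x ls embryos, against 0 and 0 TPM in X. tropicalis embryos. rpl10, which joins the large subunit late in its assembly, had 2.66 and 1.56 TPM, against 0 and 0.189 TPM, and rpl23a had 1.06 and 2.89 TPM, against 0 and 0.467 TPM.

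The remaining 4 were rpl7, rps10, rps19 and rps20, all between 1.02 and 1.68 TPM in te x ls embryos and at most 0.196 TPM in X. tropicalis embryos. rps19 is the gene most often mutated in Diamond-Blackfan anaemia, an inherited failure of red blood cell production in humans. 9 X. laevis members reached 1 TPM in 2 of these 4 libraries, 7 of them through the te x ls libraries alone, where they were high, so that no test of them is given.

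2 X. laevis members were above 1 TPM in X. tropicalis embryos as well. rps15a had 31.9 and 57.4 TPM in te x ls embryos, against 26.3 and 50.7 TPM in X. tropicalis embryos, and 1 transcript held 31.4 and 57.1 of the te x ls TPM and all of the X. tropicalis TPM. rpsa had 2.70 and 3.50 TPM in te x ls embryos, against 3.47 and 1.54 TPM in X. tropicalis embryos. The libraries of both groups overlapped for these genes.

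The other cross was described in the same way. In le x ts embryos, X. tropicalis ribosomal protein mRNAs were above 0 for 46 and 30 of 73 members, against 36 and 39 in X. laevis embryos. Over all 12852 X. tropicalis features these shares were 46.5% and 34.3% in le x ts and 38.5% and 42.9% in X. laevis embryos. Many of those features are low in their own species. For the 8389 at a mean of 10 TPM or more in X. tropicalis embryos, the shares were 62.1% and 49.2%, against 56.5% and 62.7%. Of these 8389, 16.9% had both le x ts libraries above both X. laevis libraries, and 7.70% had both below. In 16 members, or 21.9%, both le x ts libraries were above both X. laevis libraries, beside 12.2% of all X. tropicalis features, and 5 were the other way round, beside 5.17%. The count was 38 without le x ts library 3 and 27 without le x ts library 1, where the shares over all features were 29.4% and 25.4%, since a single hybrid library is more easily above both. The 5 members became 11 and 11 without le x ts library 1 or 3, and 9 and 11 without X. laevis library 1 or 3, beside 11.3%, 11.1%, 16% and 11.4% of all features. Members under 1 TPM in both X. laevis libraries numbered 66. They summed to 21.0 and 23.6 TPM in le x ts embryos, against 10.3 and 10.5 TPM in X. laevis embryos. Over all X. tropicalis features under 1 TPM there, the sums were 4039 and 2141 TPM, against 785 and 973 TPM. The median X. tropicalis member was at 0.245% of its own-species mean in le x ts embryos and at 0.0996% in X. laevis embryos. Over all X. tropicalis features these medians were 0.0583% and 0.0346%, and over the 8389 at 10 TPM or more they were 0.117% and 0.0932%.

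Only rpl10 reached 1 TPM in both le x ts libraries and stayed under it in both X. laevis libraries, beside 1.27% of all X. tropicalis features, and 0 members were the other way round. The count was 7 and 5 without le x ts library 1 or 3, and 2 without X. laevis library 3, for which no shares over all features are given. rpl10 had 1.54 and 3.55 TPM in le x ts embryos, against 0.423 and 0.189 TPM in X. laevis embryos, with no overlap. rpl10 was also among the 7 members of this kind in te x ls embryos. Of the 2 X. tropicalis members with a high background, rps18 had 19.5 and 21.3 TPM in le x ts embryos, against 21.5 and 21.8 TPM in X. laevis embryos. rps28p9 had 35.1 and 78.2 TPM in le x ts embryos, against 40.2 and 38.2 TPM in X. laevis embryos. In X. laevis embryos, which have no X. tropicalis genome, these values were 2.33% and 7.49% of the mean in X. tropicalis embryos.

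**Figure D4:**
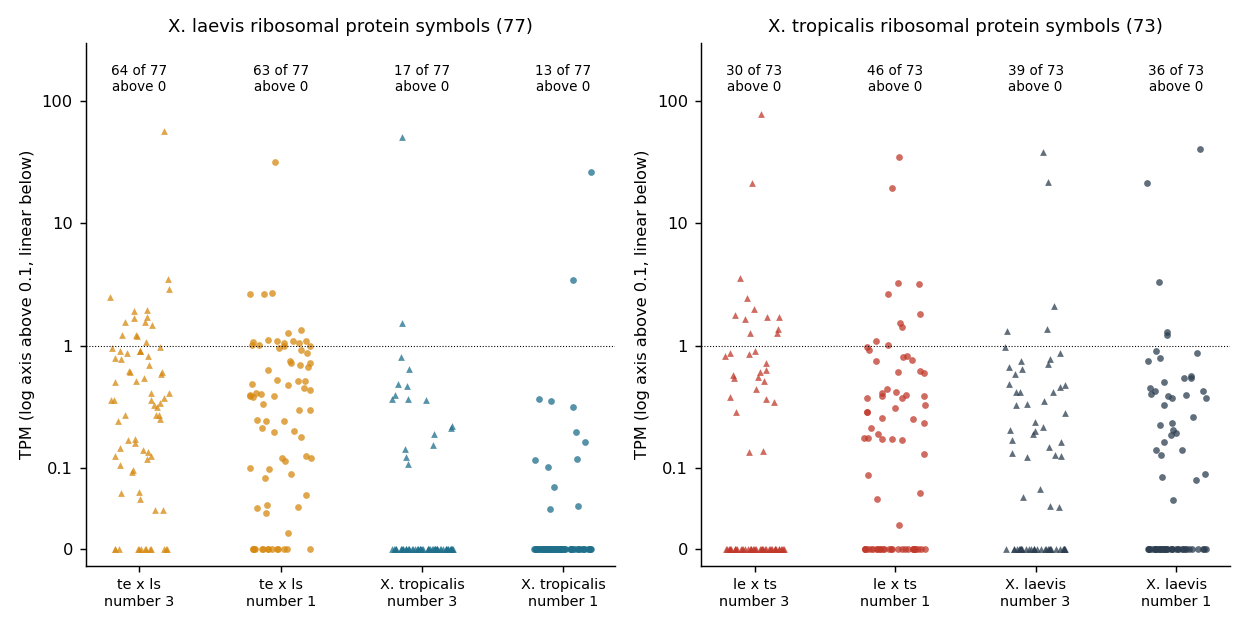
TPM of ribosomal protein symbols of the sperm's species (log axis above 0.1 TPM, linear below) in te x ls and X. tropicalis libraries (left, 77 X. laevis symbols) and in le x ts and X. laevis libraries (right, 73 X. tropicalis symbols). Points are symbols, the dotted line marks 1 TPM and the counts give symbols above 0. At left 63 and 64 symbols are above 0 in te x ls embryos, against 13 and 17 in X. tropicalis embryos, and at right the counts of the groups overlap.

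Ribosomal protein mRNAs also differed between the libraries numbered 3 and those numbered 1. The labels do not say what a number stands for. The model of group and number left 1 residual degree of freedom, with the spread moderated over all features. Its SE and p-values measure how alike the number difference was in hybrid and egg species, not the spread between replicates of a number. In X. laevis eggs 7 of the 77 X. laevis members had an adjusted p under 0.05 between numbers 3 and 1 (limma, hybrid and egg species as 2 libraries a number), beside 19.3% of all X. laevis features, and 3 were called, beside 12.4%. rpl35a, mutated in some patients with Diamond-Blackfan anaemia, had 54.7 and 40.7 TPM in the libraries numbered 3 of le x ts and X. laevis embryos, against 13.7 and 13.6 TPM in those numbered 1. The log2 difference was 1.72 ± 0.24 (SE, limma, adjusted p = 0.00066). rpl39 had 943 and 808 TPM in the libraries numbered 3, against 374 and 506 TPM in those numbered 1. rpl23 had 3.82 and 6.0 TPM in the libraries numbered 3, against 9.23 and 12.6 TPM in those numbered 1. None of these 3 genes overlapped between the numbers, and their differences were larger than that of any X. laevis member between le x ts and X. laevis embryos.

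A single transcript carried the rpl35a difference. Of its 6 X. laevis transcripts, 1 had 46.3 and 34.5 TPM in the libraries numbered 3, against 4.36 and 4.60 TPM in those numbered 1 of le x ts and X. laevis embryos. Another ran the other way, with 0 and 0.469 TPM in the libraries numbered 3, against 5.41 and 4.74 TPM in those numbered 1. The remaining members with an adjusted p under 0.05 were rpl19, higher in number 3, and rpl4, rps7 and rpl14, lower.

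In X. tropicalis eggs 34 of 72 X. tropicalis members had an adjusted p under 0.05 between the numbers, beside 46.2% of all X. tropicalis features. Of these, 29 were higher and 5 lower in number 3, while over all features 20.2% were higher and 26% lower. 1 member was called, beside 5.22% of all features. This was rpl34, with 79.0 and 55.1 TPM in the libraries numbered 3 of te x ls and X. tropicalis embryos, against 276 and 311 TPM in those numbered 1. Its log2 difference was -2.13 ± 0.15 (SE, limma, adjusted p = 0.00071), and the libraries were far from overlapping. 1 of its 2 transcripts had 52.0 and 36.9 TPM in the libraries numbered 3, against 239 and 275 TPM in those numbered 1, and the other had 27.0 and 18.2 TPM, against 37.3 and 35.8 TPM.

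Among the members higher in number 3, rpl4 had 224 and 204 TPM in the libraries numbered 3 of te x ls and X. tropicalis embryos, against 111 and 109 TPM in those numbered 1, and rpl22l1 had 190 and 175 TPM, against 106 and 95.4 TPM. The log2 differences of 0.95 ± 0.05 and 0.85 ± 0.04 (SE, limma, adjusted p = 0.00033 and 0.00034) were just under the fold threshold. rpl4 ran in the opposite direction in X. laevis eggs, where it had 102 and 137 TPM in the libraries numbered 3 of le x ts and X. laevis embryos, against 207 and 230 TPM in those numbered 1. Across members the difference between the numbers had a Pearson's r of 0.728 between le x ts and X. laevis embryos (77 members) and of 0.782 between te x ls and X. tropicalis embryos (73 members). Over all features of the egg's species r was higher, at 0.783 in X. laevis eggs and 0.864 in X. tropicalis eggs. Between groups with different eggs r lay between -0.06 and 0.04 (72 members). Members are not independent replicates, and these values describe which libraries are alike. Sums of zygotic markers of the egg's species were lower in number 3 in both groups from X. laevis eggs. They were higher in number 3 in both groups from X. tropicalis eggs, and the part of these markers in the differences was not tested.

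**Figure D5:**
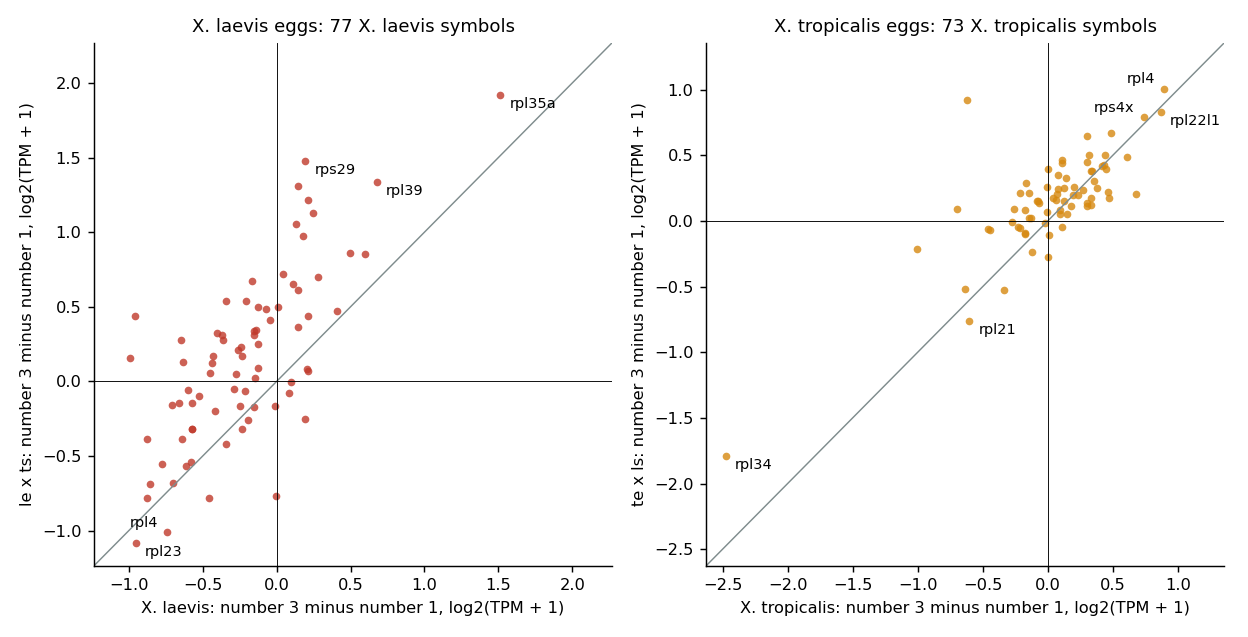
Difference in log2(TPM + 1) between the libraries numbered 3 and 1 of each ribosomal protein symbol, in the hybrid (vertical) and the egg species (horizontal), for X. laevis eggs (left, 77 symbols) and X. tropicalis eggs (right, 73 symbols). Each point is 1 symbol and the diagonal marks equal differences. In both panels symbols that are higher in number 3 in the egg species tend to be so in the hybrid, with r of 0.728 and 0.782, and rpl35a and rpl34 lie farthest out.

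Other genes of protein synthesis were described by lists. Of the mitochondrial ribosomal proteins, which build the separate ribosome of the mitochondrion, 25 of 61 were positive between le x ts and X. laevis embryos, with a median log2 difference of -0.05, and 46 of 64 between te x ls and X. tropicalis embryos, with a median of 0.05. Of 9 translation elongation genes, 2 were positive for le x ts and 7 for te x ls, with medians of -0.11 and 0.07. Of the other mRNAs with a TOP tract in mammals, 7 of 22 were positive for le x ts, with a median of -0.07, and 20 of 23 for te x ls, with a median of 0.06. Genes of ribosome biogenesis, which act mainly in the nucleolus, were positive in 15 of 66 for le x ts, with a median of -0.27, and in 44 of 70 for te x ls, with a median of 0.03. These lists share genes. The elongation and TOP lists both hold eef1b2, eef1d, eef1g, eef2 and tpt1, and the TOP and biogenesis lists both hold npm1. Over all features of the egg's species the medians were 0.01 for le x ts and -0.01 for te x ls. No gene of the egg's species in these lists was called in either cross. Among features of the sperm's species, the elongation factor gene eef1a1, chosen after its values were seen, had X. laevis mRNA at 31.7 and 40.4 TPM in te x ls embryos, against 0.152 and 0 TPM in X. tropicalis embryos. Its X. tropicalis mRNA was at 18.96 and 5.20 TPM in le x ts embryos, against 0.167 and 0.444 TPM in X. laevis embryos. The ribosomal protein members absent from both X. tropicalis libraries reached 2.63 TPM at most in te x ls embryos.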

How the data were processed

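The authors aligned reads with Bowtie against the transcripts of both species held in 1 database, keeping reads that matched perfectly and had a unique target, and the deposited values are TPM estimated by the authors with RSEM. The submitters' processing notes also list BWA 0.7.10. The authors' own test was edgeR on reads, which were not used here. Groups and numbers came from the sample labels. The series text speaks of 3 replicates, and the labels give 2 libraries a group, so n = 2 was used.

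TPM were summed by symbol within species. Features at 1 TPM or more in at least 2 libraries were tested on log2(TPM + 1) with limma 3.58.1 (lmFit, eBayes with a mean trend) in R 4.3.3, with Benjamini-Hochberg adjustment over all features of both species. Differences on this scale understate the change of low genes. Hybrids were tested against the egg species with those 4 libraries alone. X. laevis against X. tropicalis and the interaction were fitted over all 4 groups on symbols of the egg's species, so that these groups share 1 estimate of the spread.

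Depth was not given, and relative reads were estimated from the commonest ratio of transcripts at 0.03 to 0.3 TPM. Members, lists and comparisons were chosen with earlier results of these data known. Named were the 8 highest and 4 lowest members of a species, the 5 largest differences in each direction at a mean of 5 TPM, members that passed a test, and the paralogues and stalk proteins. Some members that this rule names are not reported here. A planned search for the genes most like rplp0 rested on 4 libraries and is not given. No reference sequences were used here.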

Additional observations from a re-analysis of the deposited data

How the results depend on the processing

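The calls rest on 2 libraries a group, and the reads behind a TPM are unknown. Counts of called or detected members and the shares were recomputed under alternatives. Of these values, 108 stayed within 1.5 times the value given or within 1 SD. Beyond that, 18 counts were larger, 4 counts were smaller and 4 shares moved. For le x ts against X. laevis and for the interaction, the count of called members was 0 under every alternative run. For X. laevis against X. tropicalis the count was 41, beside 3923 of 9685 symbols tested. For te x ls against X. tropicalis the count of 0 became 1 with a pseudocount of 0.1 and 1 without the mean trend, beside 150 and 181 of 11257 features. It became 2 with all 4 groups in 1 fit, beside 137 of 21868 features, and 6 with adjustment within each species. With the replicate number as a block that count was 2, beside 388 of 11257 features, where 64 were called without the block. The members called in te x ls under these alternatives were X. laevis members, which in fits of these 4 libraries passed the filter through the te x ls libraries alone. That filter picks members by the group in which they are high. Their calls in those fits therefore cannot test a difference, and nothing is drawn from them. The counts over 11257 features beside them are of both species under the same filter and carry the same limit. Under the block, 5 of 81 members of both species had an adjusted p under 0.05 (limma, Benjamini-Hochberg), beside 441 of 11257 features. Of the 5 members, 3 were X. tropicalis members, all higher in te x ls embryos and among them rpl30 at 0.039 in limma. The rest were the called X. laevis members, whose adjusted p has the limit of the filter. The block left 0 members called for le x ts against X. laevis, beside 162 of 11526 features where 0 were called without it, 41 for X. laevis against X. tropicalis and 0 for the interaction. The labels do not say that a number pairs the libraries. Same-numbered libraries deviated together over all features, with r of 0.753 in X. laevis eggs and 0.838 in X. tropicalis eggs. Between numbers 3 and 1 in X. laevis eggs, the 3 called members became 0 with no filter, beside 161 of 21367 features of both species. They became 7 with no fold cutoff, beside 2163 of 11526 features, and 16 with each transcript by itself. In X. tropicalis eggs the 1 called member became 2 with a pseudocount of 0.1 or 0.5, beside 763 and 689 of 11257 features. With no fold cutoff it became 36, of which 34 were X. tropicalis and 2 X. laevis members, beside 5004 of 11257 features. With each transcript by itself it became 3. No share is given for the counts by transcript. Members of the sperm's species detected only in te x ls numbered 20 (26.0%) at 0.5 TPM, beside 4.37% of all X. laevis features. At 5 TPM they numbered 0, beside 0.592%. They numbered 3 with each transcript by itself and 7 to 13 with 1 library left out. In le x ts they numbered 3 (4.11%) at 0.5 TPM, beside 1.99% of all X. tropicalis features, and 0 at 5 TPM, beside 0.405%. With 1 library left out they numbered 1 to 7 in le x ts. No share over all features is given for the counts with 1 library left out or by transcript. With only the most abundant transcript of each symbol, the share of ribosomal protein TPM was 0.856% in le x ts, 0.869% in X. laevis and 1.05% in X. tropicalis embryos, and without its most abundant symbol it was 1.01% in X. tropicalis embryos. With 1 library left out, 11 log2 differences of single members changed sign. Between le x ts and X. laevis embryos the lowest and highest values were -0.14 and 0.995 for rps15a, -0.17 and 0.88 for rpsa, -0.75 and 1.17 for rpl35a, and -1.02 and 0.071 for rpl23. Between te x ls and X. tropicalis embryos they were -0.30 and 0.12 for rpl37, -0.28 and 0.12 for rps21, and -0.46 and 0.011 for rpl28. In the interaction they were -0.87 and 0.19 for rpsa, -0.76 and 0.21 for rpl28, -0.76 and 0.37 for rps15a, and -0.73 and 0.28 for rplp1. The cause was not tested in any of these cases.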
